A study of Homo sapiens with 38 samples.

Results

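The binding of DPPA2, DPPA4 and 4 other chromatin proteins was measured across the DLX homeobox genes in human lung cancer cells by CUT&RUN, in which a tethered nuclease releases the DNA beneath an antibody for sequencing. The members were chosen by name, as the 6 genes DLX1 to DLX6 of 19970 protein-coding genes with an annotated start site (TSS) on the autosomes and X. They form 3 adjacent pairs, DLX1 with DLX2, DLX6 with DLX5, and DLX4 with DLX3. Each promoter was taken as the TSS ± 1500 bp, and each pair as the span from the outer edge of one promoter to the outer edge of the other, with the intergenic stretch between the genes included. Of 38 libraries, 8 were IgG controls and 30 carried called regions of 2 kinds, the broad domains of EPIC2 and the narrow peaks of MACS2, each called per library against IgG.

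NCI-H661, a lung large cell carcinoma line that expresses DPPA2 and DPPA4 itself, gave 4 parental libraries, 1 each for DPPA2, the N-terminal DPPA4 antibody (DPPA4n), a further DPPA4 antibody (ab154642) and an antibody to the central region of DPPA4 (DPPA4c). NCI-H1299, a lung adenocarcinoma line that does not express either protein, was engineered to make DPPA2 with a Flag tag and DPPA4 with a V5 tag under a doxycycline-responsive promoter and was treated for 7 days with 2 µg/mL doxycycline (dox). It gave 12 libraries, 2 replicates each for DPPA2, 2 Flag antibodies (Flagmono and Flagsuper), DPPA4n, ab154642 and V5, and an uninduced arm was not analysed here. NCI-H661 cells with dox-inducible hairpins against DPPA4 (the shDPPA4 line) or against DPPA2 and DPPA4 together (the shDPPA2+4 line) were grown for 7 days with water or with dox. Their water arms, the controls, gave 1 library each for DPPA4n, RING1B, PCGF1, MTF2 and EP300, and the dox arms 1 each for DPPA4n and RING1B. The engineered lines were sorted populations and not clones. A line with a non-targeting hairpin was not analysed here, so the effects of dox and of the hairpins cannot be told apart. RNA and protein were not measured in these libraries, so neither the depletion nor the expression of any DLX gene was checked.

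The DLX genes encode homeodomain transcription factors related to Distal-less of the fly. They lie in the genome as pairs of genes that point towards each other and share enhancers in the stretch between them. DLX1, DLX2, DLX5 and DLX6 are known for specifying GABAergic interneurons of the forebrain and for patterning the jaw, with DLX5 and DLX6 also acting in limb and bone. DLX3 acts in epidermis, hair, teeth and placenta, and DLX4 is expressed in placenta and in some cancers. DPPA2 and DPPA4 are SAP-domain proteins of the early embryo that bind CpG-rich promoters of developmental genes. RING1B is the enzyme of Polycomb repressive complex 1 that ubiquitinates histone H2A, and PCGF1 defines one of the variant forms of that complex. MTF2 helps recruit Polycomb repressive complex 2 to CpG islands, whereas EP300 acetylates histones at active enhancers and promoters.

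Each pair was convergent and held no other protein-coding gene. The DLX1 and DLX2 start sites lay 17.4 kb apart on chr2:172084007-172104400 (hg38, span of 20.4 kb), with an intergenic stretch of 9.76 kb. DLX6 and DLX5 lay 19.3 kb apart on chr7:97004053-97026331, with 9.36 kb between the genes, part of it overlapped by the antisense lncRNA DLX6-AS1. DLX4 and DLX3 lay 26.0 kb apart on chr17:49967690-49996724, with 15.0 kb between them. The spans differed in base composition. CpG density was 47.6 per kb across DLX1–DLX2, 33.8 across DLX6–DLX5 and 25.6 across DLX4–DLX3, and within the intergenic stretches it was 40.4, 24.7 and 12.3 per kb. The promoters of DLX1 and DLX2 were in the CpG-rich class, which held 8411 of all promoters, and those of DLX3, DLX4, DLX5 and DLX6 in the class between rich and poor.

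The sequences below show the contrast between the bound promoters and the bound intergenic sites, with each CpG in capitals. The stretches of 250 bases upstream of DLX2 and of DLX6 are from RefSeq (GRCh38.p14). That of DLX2 (chr2:172102901-172103150, minus strand) partly overlaps an exon of the divergent lncRNA DLX2-DT. That of DLX6 (chr7:97005303-97005552, plus strand) lies within DLX6-AS1. Each held 25 CpGs, and 78.4% of 35116 RefSeq promoters held fewer in the same stretch. Of the 6 genes, DLX1, DLX2 and DLX6 were matched in that table. The other pair of sequences are windows of 200 bases around the strongest intergenic DPPA2 peak summit of parental NCI-H661 in DLX1–DLX2 (chr2:172090357-172090556) and in DLX6–DLX5 (chr7:97016728-97016927), from hg38, plus strand, outside annotated genes. They held 3 and 9 CpGs, and 28.2% and 52.2% of RefSeq promoters held fewer in 200 upstream bases.
DLX2 upstream: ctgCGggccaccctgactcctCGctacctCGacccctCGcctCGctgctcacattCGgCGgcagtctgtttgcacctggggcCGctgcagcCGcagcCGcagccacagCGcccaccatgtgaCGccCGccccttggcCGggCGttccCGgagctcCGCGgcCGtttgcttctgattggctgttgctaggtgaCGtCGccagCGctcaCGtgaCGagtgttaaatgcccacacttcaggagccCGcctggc
DLX6 upstream: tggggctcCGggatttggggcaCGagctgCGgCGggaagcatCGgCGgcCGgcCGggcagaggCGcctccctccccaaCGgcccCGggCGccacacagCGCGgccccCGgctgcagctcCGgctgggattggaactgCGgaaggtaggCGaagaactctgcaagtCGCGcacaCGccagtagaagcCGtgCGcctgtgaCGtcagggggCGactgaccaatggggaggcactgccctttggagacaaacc
DLX1–DLX2 intergenic summit: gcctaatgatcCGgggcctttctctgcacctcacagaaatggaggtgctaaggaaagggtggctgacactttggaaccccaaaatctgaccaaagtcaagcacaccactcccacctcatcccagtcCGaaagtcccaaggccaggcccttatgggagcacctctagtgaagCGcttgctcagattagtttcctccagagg
DLX6–DLX5 intergenic summit: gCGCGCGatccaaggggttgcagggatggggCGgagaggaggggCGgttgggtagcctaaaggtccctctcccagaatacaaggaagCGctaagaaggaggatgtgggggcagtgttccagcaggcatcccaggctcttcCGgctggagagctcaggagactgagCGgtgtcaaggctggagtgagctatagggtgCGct

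Regions were kept at a false discovery rate below 0.05 and a log2 fold over IgG above 1. The 30 libraries differed widely in what was called, from 4904 to 105640 EPIC2 domains (median 29500) and from 12 to 50414 MACS2 peaks (median 18800), and reads within kept domains ranged from 48262 to 6850681. Fewer regions did not always go with a smaller library. In NCI-H1299, replicate 2 had fewer domains than replicate 1 for every antibody, and size was measured against the IgG that both replicates shared. Replicate 2 was the larger for DPPA2 (2.95 against 2.29 IgG sizes), Flagmono (3.12 against 2.78) and V5 (4.24 against 2.94). It was the smaller for DPPA4n (1.37 against 1.65), ab154642 (1.20 against 1.34) and Flagsuper (1.39 against 1.68). A promoter without a region was not detected in that library, which does not show that the protein was absent. Replicate 2 of Flagmono in NCI-H1299 stood apart with the fewest regions of both kinds and touched none of the DLX promoters. Where a value is the percent of a promoter or span lying inside regions, it is called the covered percent.

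In parental NCI-H661, DPPA2 and DPPA4 occupied the promoters of DLX1, DLX2, DLX3, DLX5 and DLX6, and DLX1–DLX2 was covered over most of its length by 3 of the 4 antibodies. MACS2 peaks of both DPPA2 and DPPA4n touched 5 of the 6 promoters, against a background of 39.2% of all promoters and 61.2% of CpG-rich promoters called by the same rule. DPPA2 alone touched 5 (background 46.3%, and 69.8% of CpG-rich promoters), DPPA4n the same 5 (47% and 70.6%), ab154642 all 6 (50.6% and 74%) and DPPA4c DLX1 and DLX2 (5.47% and 8.03%). With EPIC2 domains, DPPA2 and DPPA4n together touched all 6 (background 48.2% and 72.4%). With 1 library per antibody these values have no replicate error and were not tested.

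A peak fold is that of the strongest MACS2 peak touching the promoter, whose summit may lie beyond the window. DLX2, a forebrain interneuron factor, had the highest peak folds over IgG for 3 of the 4 antibodies, 15.1 for DPPA2, 16.9 for DPPA4n and 18.1 for ab154642, and 4.07 for DPPA4c. Its DPPA2 peak was higher than that of 95.4% of the promoters touched in that library. Its partner DLX1 had folds of 13.02, 9.83, 12.5 and 6.30 in the same order, and exceeded 91.5% of touched promoters for DPPA2. In every parental library the pair DLX1 and DLX2 was covered by domains, including the DPPA4c library that called none of the other 4 promoters. DLX3, the epidermal and placental member, had folds of 10.2, 8.88 and 9.32 for DPPA2, DPPA4n and ab154642. DLX6 had 8.49, 8.25 and 8.73, and DLX5 had 7.46, 5.25 and 6.08, the lower of that pair with each antibody. DLX4 had the fewest peaks, with one in the ab154642 library only, of 4.97-fold. Its domains covered 20.0% of the promoter for DPPA2, 16.7% for DPPA4n and 53.0% for ab154642, against 46.7%, 13.3% and 36.7% at DLX5, so its coverage was below that of DLX5 with DPPA2 and above it with both DPPA4 antibodies.

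**Figure D1:**
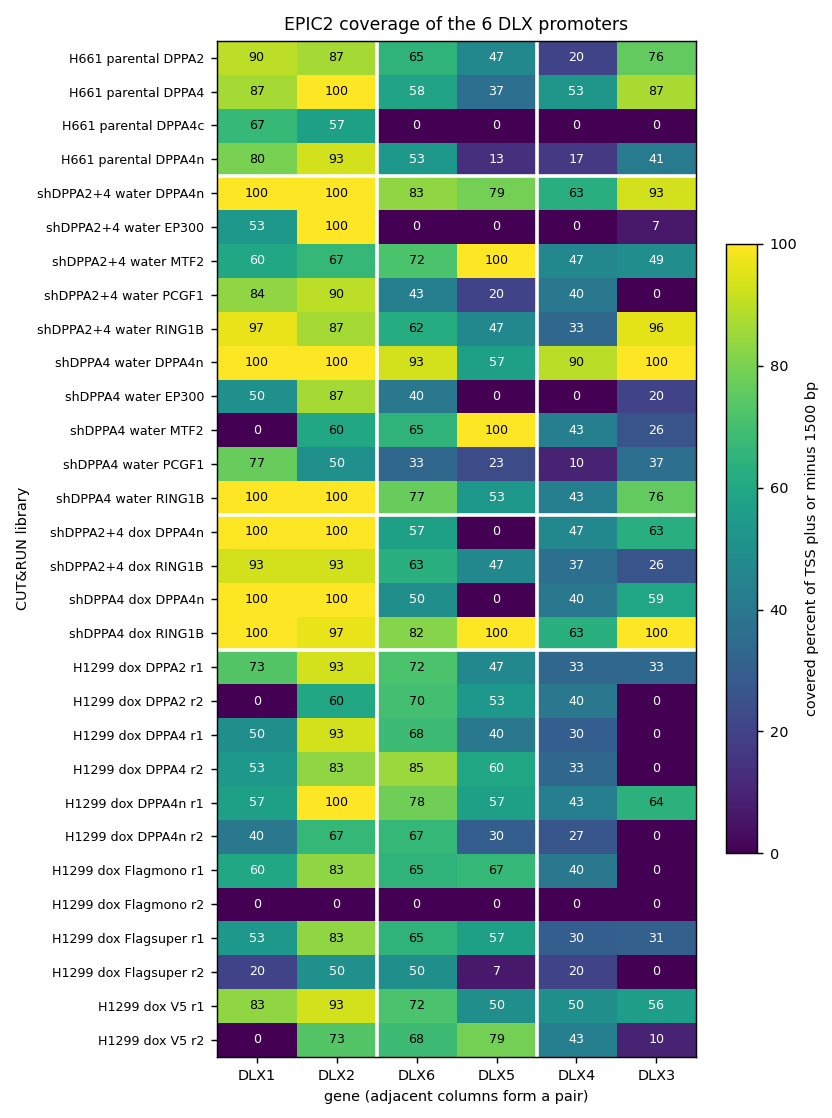
Heat map of the percent of each DLX promoter (TSS ± 1500 bp) inside EPIC2 domains, with 1 row per CUT&RUN library and 1 column per gene, partners side by side. DLX2 was touched in 29 of 30 libraries and DLX3 in 21, and replicate 2 of Flagmono in NCI-H1299 was at 0 for all 6 genes.

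The DLX1–DLX2 span was the most fully covered of the 3 pairs in NCI-H661. EPIC2 domains took up 86.8% of it for DPPA2, 83.8% for DPPA4n, 88.2% for ab154642 and 29.9% for DPPA4c, and of its intergenic stretch 93.2%, 91.8%, 87.7% and 17.4%. Coverage therefore ran through the bodies of both genes and the stretch between them and was not limited to the start sites. The strongest intergenic DPPA2 peak, at the first of the intergenic sequences shown above, lay 4.95 kb from the DLX1 start site with a fold of 13.02, as high as the separate peak at the DLX1 promoter, although its window held 3 CpGs. The summit was inside EPIC2 domains in 15 of the 30 libraries. The longest DPPA4n domain, of 5.8 kb, ranked 9 by length among 35818 domains in that library.

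DLX6–DLX5 and DLX4–DLX3 were covered in parts. For DLX6–DLX5 the covered percent of the span was 31.0 for DPPA2, 17.51 for DPPA4n and 17.95 for ab154642, and DPPA4c called nothing there. The strongest DPPA2 peak between these genes, with 9 CpGs in its window, had a fold of 10.2, above the folds of the DLX6 and DLX5 promoters, and lay 11.3 kb from the DLX6 start site. Its summit was inside domains in 25 of the 30 libraries. For DLX4–DLX3 the span was covered to 23.1% by DPPA2, 13.2% by DPPA4n and 21.1% by ab154642, again with nothing for DPPA4c. Its long intergenic stretch held at most 3.99% coverage in the parental libraries. Across the pairs, the bases inside DPPA2 peaks were denser in CpG than those outside, at 50.3 against 36.8 per kb for DLX1–DLX2, 63.0 against 25.9 for DLX6–DLX5 and 57.3 against 20.5 for DLX4–DLX3. These densities are descriptions of 1 library and of neighbouring bases that share their composition.

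**Figure D2:**
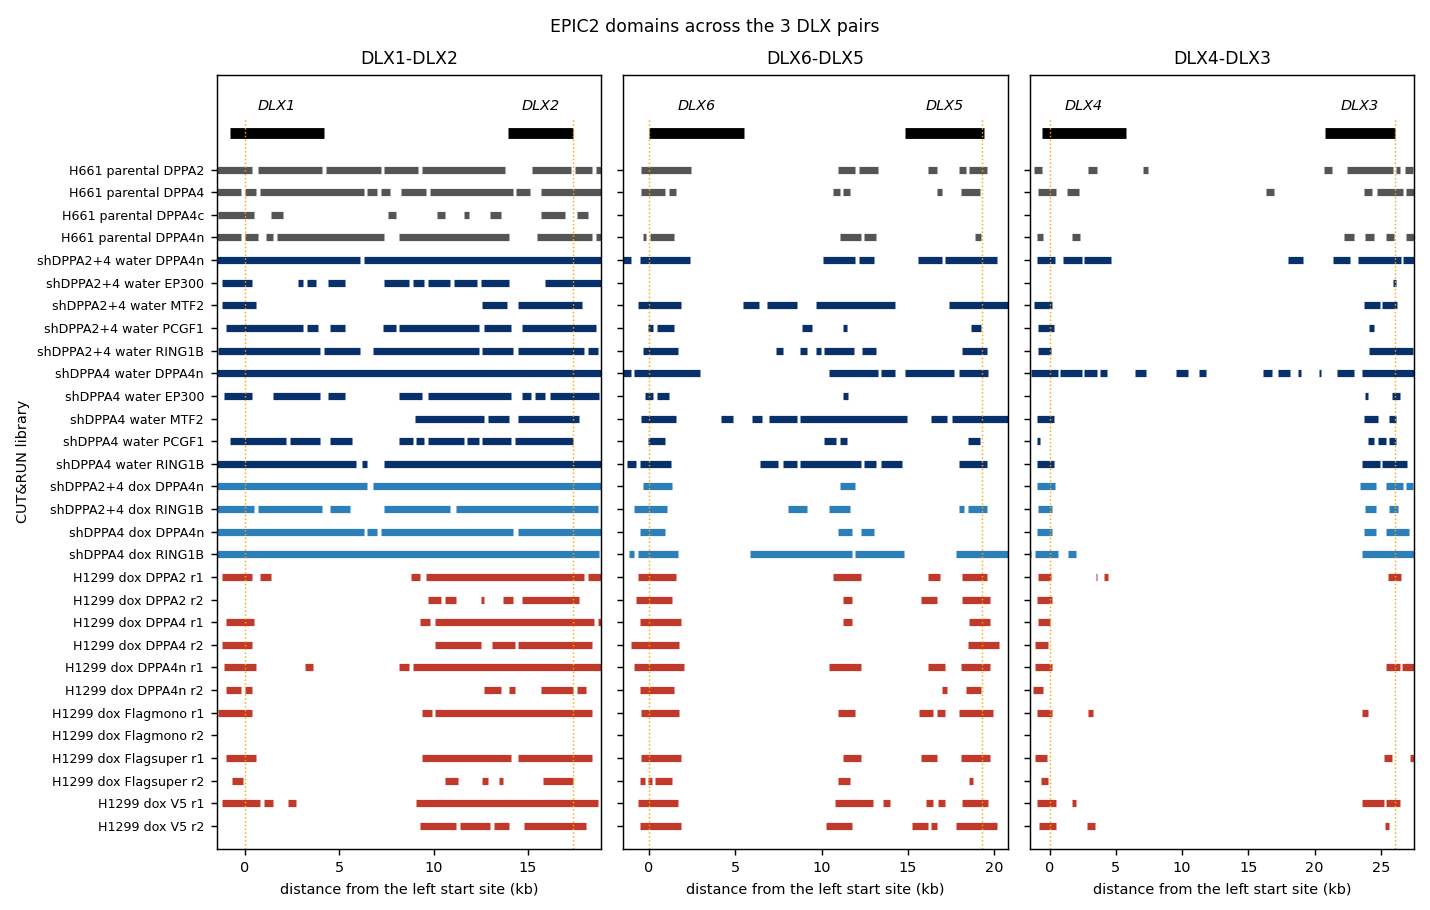
Maps of the 3 DLX pairs, drawn to scale in kb from the left start site, with the genes at the top and, for each library, a bar for every EPIC2 domain. DLX1–DLX2 was filled between the genes in 3 of 4 parental libraries, whereas the stretch between DLX4 and DLX3 had no domain in any of the 12 NCI-H1299 libraries.

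The nearest protein-coding neighbours were METAP1D, 1.58 kb beyond the DLX1 side, ITGA6, 323 kb beyond DLX2, SEM1 and SDHAF3 around DLX6–DLX5 at 294 and 91.4 kb, and TAC4 and ITGA3 around DLX4–DLX3 at 120 and 59.2 kb. ITGA3, an integrin subunit, had a DPPA2 peak of 11.3-fold and a DPPA4n peak of 9.97-fold in parental NCI-H661, close to those of DLX3. SEM1 and TAC4 had no peak of either antibody there.

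In the water arms of both hairpin lines, the question was which Polycomb proteins and coactivators lay on the DLX genes beside DPPA4. DPPA4n domains touched all 6 promoters in both lines (background 67.1% of all promoters and 92.7% of CpG-rich promoters). RING1B also touched all 6 in both lines (57.6% and 84.7%). PCGF1 touched 5, all but DLX3, against a background of 16% and 26%. MTF2 touched 5, all but DLX1 (56.4% and 81.6%), and EP300 touched DLX1, DLX2 and DLX3 (45.6% and 68.1%). MACS2 peaks touched all 6 for DPPA4n (64.3% and 90.5%) and RING1B (53.2% and 78%), all but DLX4 for MTF2 (45.5% and 70.7%), and DLX1 and DLX2 for EP300 (29.3% and 47.1%) and PCGF1 (1.41% and 2.52%). RING1B, PCGF1 and EP300 were all found in both lines at DLX1 and DLX2 (a background of 13.50% of all promoters and 22.1% of CpG-rich promoters). The 2 lines are separate populations and were not treated as replicates.

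RING1B, whose complex silences developmental genes, was present throughout. Its peaks at the DLX promoters ranged from 5.44- to 14.4-fold over IgG. The highest was at DLX3, with 12.5-fold in the shDPPA4 line and 14.4-fold in the shDPPA2+4 line. DLX6 had 9.89- and 13.53-fold and DLX1 10.6- and 7.94-fold, so the gene after DLX3 was DLX1 in the shDPPA4 line and DLX6 in the other. PCGF1 peaks passed the limits only at DLX1, with 10.1- and 5.26-fold, and at DLX2, with 5.07- and 5.86-fold. The EPIC2 calls of PCGF1 at DLX4, DLX5 and DLX6 had no MACS2 peak in either line. Their strongest domains held 8 to 31 reads, against 99 to 178 at DLX1 and DLX2. Their log2 folds of 1.88 to 5.29 were not lower than the 1.80 to 2.88 of DLX1 and DLX2, and the highest of them were set against 0 IgG reads. PCGF1 domains covered 76.9% and 83.5% of the DLX1 promoter and 50.02% and 90.003% of the DLX2 promoter, against 33.3% and 43.3% at DLX6, 23.3% and 20.0% at DLX5 and 10.0% and 39.99% at DLX4. At DLX3 they covered 36.7% in shDPPA4 cells and nothing in shDPPA2+4 cells. MTF2 domains filled 100% of the DLX5 promoter in both lines, with peaks of 14.6- and 13.6-fold. DLX6 had MTF2 peaks of 15.3- and 7.87-fold. In the shDPPA2+4 line an MTF2 peak overlapping the DLX3 promoter was higher than that of DLX6, with log2 folds of 3.03 and 2.98. At DLX2 the MTF2 peaks were 2.49- and 3.17-fold. DLX1 had MTF2 peaks of 3.11- and 7.40-fold but no kept MTF2 domain in the shDPPA4 line, so its call depended on the caller. EP300 had peaks of 3.63- and 8.94-fold at DLX1 and 3.45- and 4.20-fold at DLX2, and at DLX5 neither line had an EP300 domain or peak. DLX3 had EP300 domains over 20.0% and 6.66% of its promoter and no peak.

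Over whole spans, and by EPIC2 domains unless stated, the proteins differed in the pair they covered most. DLX1–DLX2 was covered to 100% and 99.0% by DPPA4n in the shDPPA4 and shDPPA2+4 lines, to 94.1% and 90.7% by RING1B, 68.6% and 77.0% by PCGF1, 69.1% and 59.3% by EP300 and 39.2% and 31.9% by MTF2. DLX6–DLX5 had its highest coverage with MTF2, at 68.4% and 58.9%, followed by DPPA4n at 55.4% and 47.3% and RING1B at 49.8% and 31.4%. PCGF1 there reached 12.6% and 12.1% and EP300 6.73% and 0%. The MTF2 domains ran through the intergenic stretch, covering 88.7% and 76.5% of it. By MACS2 peaks the order changed, and RING1B covered more of the DLX6–DLX5 span than MTF2. The shares were 45.8% against 45.1% in the shDPPA4 line and 57.8% against 32.5% in the shDPPA2+4 line. DLX4–DLX3 was covered to 50.7% and 38.7% by DPPA4n and to no more than 15.5% by any other protein, and between those genes only DPPA4n had domains. MTF2 thus covered more of DLX6–DLX5 than of DLX1–DLX2 in both lines, and EP300 and PCGF1 less. With 1 library per line this difference was not tested.

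The DLX1–DLX2 domains were among the longest in their libraries. In the shDPPA4 water arm a continuous DPPA4n domain of 32.6 kb held both genes and ranked 2 of 76174 by length, and in the shDPPA2+4 line the longest, of 15.7 kb, ranked 15 of 44555. RING1B reached 11.5 kb (rank 13 of 42613) and 5.6 kb (rank 69 of 31502), PCGF1 3.1 kb (rank 20 of 11067) and 4.2 kb (rank 14 of 10164), and EP300 4.4 kb (rank 6 of 25491) and 3.0 kb (rank 126 of 27562). MTF2 did not share this, with longest domains of 3.7 and 3.4 kb at ranks 3032 of 105640 and 6084 of 101461. At DLX1–DLX2 every base in a RING1B, PCGF1, MTF2 or EP300 domain was also inside a DPPA4n domain of the same line. DPPA4n covered 100% and 99.0% of that span, so this share was all but fixed by its coverage. At DLX6–DLX5 the share was 63.1% and 82.9% for RING1B and 55.2% and 60.9% for MTF2, so part of the MTF2 and RING1B coverage there lay outside DPPA4n domains. At DLX4–DLX3, where DPPA4n covered 50.7% and 38.7% of the span, it was 100% and 95.3% for RING1B and 100% and 94.6% for MTF2.

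**Figure D3:**
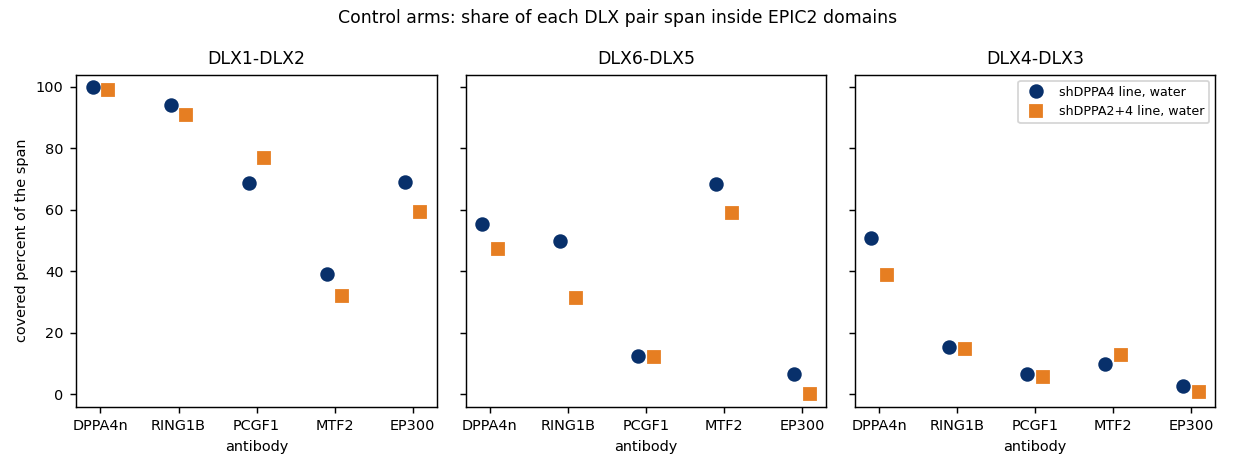
Percent of each pair span inside EPIC2 domains (vertical axis) for the 5 antibodies in the water arms of the shDPPA4 line (circles) and the shDPPA2+4 line (squares), 1 library per point. MTF2 was highest at DLX6–DLX5, at 68.4% and 58.9%, and the other 4 proteins were highest at DLX1–DLX2.

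In NCI-H1299, where both proteins were introduced, the question was whether they reached the same DLX promoters. DPPA2 and DPPA4n domains in both replicates touched DLX2, DLX4, DLX5 and DLX6, 4 of the 6 (background 30.6% of all promoters and 49.4% of CpG-rich promoters). Replicate 1 touched all 6 (61.4% and 88.6%) and replicate 2 the same 4 (30.7% and 49.4%), so DLX1 and DLX3 rested on replicate 1 for this rule. Over all 12 libraries DLX2, DLX4, DLX5 and DLX6 were touched in 11 each, DLX1 in 9 and DLX3 in 5. In parental NCI-H661, domains touched DLX4 in 3 of the 4 libraries, as they did DLX3, DLX5 and DLX6. By MACS2 peaks, DLX4 was touched in 1 of the 4 parental libraries and in 9 of the 12 NCI-H1299 libraries, as many as DLX1 and DLX5. DLX3 was the least touched in NCI-H1299 by both callers. This contrast between the cell lines was not tested, because the parental libraries had no replicates and the antibody sets differ.

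DLX3 coverage was 33.3% with DPPA2, 64.1% with DPPA4n, 30.8% with Flagsuper and 55.9% with V5 in replicate 1, and 10.0% with V5 in replicate 2, and the other 7 libraries had none. Replicate 1 was higher than replicate 2 for all 6 antibodies at DLX2, with medians of 93.3% and 63.3%, and for 5 of 6 at DLX1, with medians of 58.3% and 10.0%. The median over all promoters tested was 43.3% in replicate 1 and 11.7% in replicate 2. At DLX4 the medians were 36.7% and 29.99%, at DLX5 53.3% and 41.7%, and at DLX6 70.1% and 67.5%, smaller differences than that of the median promoter. MACS2 folds reached 43.4 at DLX2 with V5 and 33.5 at DLX1 with DPPA4n, both in replicate 1. DLX4 had MACS2 peaks in 9 of the 12 libraries, up to 20.8-fold with V5 in replicate 1, and DLX3 in 2, of 5.27-fold with DPPA4n and 3.42-fold with Flagsuper.

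The 6 libraries directed at DPPA2 (DPPA2, Flagmono and Flagsuper) were compared with the 6 directed at DPPA4 (DPPA4n, ab154642 and V5) by a two-sided exact permutation test of the covered percent at each of 13637 promoters. DLX6 coverage ran from 0% over a median of 65.1% to 71.7% in the DPPA2-directed libraries and from 66.6% over 70.1% to 85.1% in the DPPA4-directed libraries. The DPPA2-directed libraries other than Flagmono in replicate 2 lay between 50.0% and 71.7%, and the groups overlapped. The means were 53.6% ± 27.4 and 73.1% ± 7.197 (SD, n = 6 each), with an exact p of 0.0649 and a Benjamini-Hochberg adjusted p of 0.643. DLX2 ran from 0% over 71.7% to 93.3% and from 66.7% over 88.3% to 100%, with means of 61.7% ± 34.3 and 85.0% ± 12.9 and an exact permutation p of 0.156 (adjusted p 0.643). DLX1 had means of 34.4% ± 31.9 and 47.2% ± 27.3, DLX5 38.3% ± 27.9 and 52.6% ± 17.0, DLX4 27.2% ± 15.3 and 37.8% ± 9.11, and DLX3 10.7% ± 16.6 and 21.7% ± 30.1, with exact permutation p-values from 0.210 to 0.491 (adjusted p from 0.643 to 0.703).

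With replicate numbers left out of the test, none of the 6 genes passed the exact permutation test at an adjusted or an unadjusted p below 0.05, where 0% of all promoters passed adjusted and 4.5% (614) unadjusted. The DPPA4-directed mean was higher at all 6, by 10.6 to 23.3 percentage points, and the median promoter was also higher, by 12.8 points. Much of this rested on replicate 2 of Flagmono, which was at 0 for all 6 genes. Without that library the difference, DPPA2-directed minus DPPA4-directed, ran from −5.11 points at DLX4 to −11.0 at DLX2, with −8.74 at DLX6 and −7.66 at the median promoter. Without replicate 2 of every antibody it was 7.78 points at DLX5, the opposite direction. The design allowed no p under 0.00216, and 591 promoters at that value would be needed for any to pass the adjustment. limma, which estimates the spread across promoters, also called 0 promoters, with 1001 at an unadjusted p below 0.05 and no DLX gene among them. Whether replicates 1 and 2 came from separate cultures is not stated in the labels, and the antibodies share their cells, so the p-values measure the spread between libraries, which may be technical.

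In the 11 NCI-H1299 libraries with any domain at these genes, DLX1–DLX2 was the span covered most, then DLX6–DLX5 and then DLX4–DLX3. The parental DPPA2 and DPPA4n libraries had the same order, and with ab154642 the last 2 changed places. DLX1–DLX2 was covered to between 50.0% and 61.8% (median 54.9%) in replicate 1 and between 0% and 44.6% (median 23.5%) in replicate 2. DLX6–DLX5 had medians of 27.8% and 17.51%, and DLX4–DLX3 of 7.58% and 3.10%. DLX1–DLX2 again held long domains, of 10.0 kb with DPPA4n (rank 25 of 39839) and 8.3 kb with Flagmono (rank 10 of 24177) in replicate 1. In replicate 2 the longest with DPPA4n was 1.7 kb (rank 211 of 14563), and Flagmono had none. With DPPA2 in replicate 1 the longest, of 8.4 kb, ran from chr2:172095101 to 172103500, from the intergenic stretch across DLX2. The intergenic summit near DLX1 shown above lay outside it.

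Doxycycline in the hairpin lines addressed what became of DPPA4 and RING1B at the DLX genes when DPPA4, or both proteins, were depleted. Each value is the log2 ratio, dox over water, of reads per kb in the domains touching a promoter, after scaling for library size against the IgG that both arms shared. The dox library was 0.561 times the size of the water library for DPPA4n in shDPPA4 cells and 1.93 times in shDPPA2+4 cells, and 1.28 and 1.62 times for RING1B. Intervals are 95% counting intervals and cover counting error only, and with 1 library per arm nothing was tested.

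At DLX5 the DPPA4n domain was lost with dox in both lines. In water it covered 56.6% of the promoter with 114 reads in shDPPA4 cells and 79.0% with 64 reads in shDPPA2+4 cells, with MACS2 peaks of 9.11- and 5.72-fold, and with dox neither caller kept a region. Without the fold limit, the shDPPA4 dox library had a weak domain of 17 reads at a log2 fold of 0.77, and the shDPPA2+4 dox library still had none. Domains were lost at 21% (shDPPA4) and 9.84% (shDPPA2+4) of promoters that had one in water, and in both lines at 7.31% of promoters with one in both water arms. DLX5 was thus 1 member of 6 lost, among 979 promoters lost in both lines.

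DLX3 had the lowest ratio among the members that kept a domain, at −1.50 ± 0.39 in shDPPA4 cells and −1.02 ± 0.31 in shDPPA2+4 cells. Its covered percent went from 100 to 59.2 and from 93.3 to 62.5, and its peak fold from 23.5 to 3.38 and from 21.6 to 11.2. The strongest EPIC2 log2 fold there went from 3.54 to 2.03 in shDPPA4 cells but from 4.05 to 5.05 in shDPPA2+4 cells, the opposite direction to the density. DLX3 was the member past a 2-fold lower density in each line, where the background was 8.2% and 19.2% of promoters, and none was past a 2-fold higher density (background 1.3% and 0.23%). DLX1 was at −0.61 ± 0.10 and −0.95 ± 0.12, and DLX2 at −0.21 ± 0.13 and −0.74 ± 0.09. In the shDPPA4 water arm both genes lay in the same domain of 7955 reads, so these values share their water reads. DLX6 was at −0.04 ± 0.36 and −0.80 ± 0.33, and DLX4 at 0.12 ± 0.51 and −0.36 ± 0.50, wide intervals that reach or pass 0 except for DLX6 in the shDPPA2+4 line. The median over the 5 genes with a domain in both arms was −0.21 and −0.80, beside −0.37 over 11321 and −0.62 over 12182 promoters. By the difference of EPIC2 log2 folds the members' medians were −1.21 and −0.96 beside −0.68 and −0.80, and by MACS2 folds −1.03 and −0.39 beside −1.03 and −0.64. The side of the general median on which the members lay thus depended on the measure. DLX4 in the shDPPA4 line was also negative by both fold measures, at −0.64 and −1.63. DLX6 in that line was at −2.92 by EPIC2 log2 fold and −0.66 by MACS2 fold, and its covered percent went from 93.3 to 50.0.

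Coverage of the spans with dox differed between the pairs. For DPPA4n, DLX1–DLX2 went from 100% in water to 96.6% with dox in the shDPPA4 line and from 99.0% to 98.5% in the shDPPA2+4 line. DLX6–DLX5 went from 55.4% to 13.9% and from 47.3% to 11.7%, and DLX4–DLX3 from 50.7% to 13.1% and from 38.7% to 15.2%. These percents were not scaled to library size. The covered percent of all promoters with a domain in both arms also fell, from a median of 72.3 to 36.7 and from 67.5 to 46.7. Reads summed over the domains of each span and scaled to library size were lower in every pair and line, by a log2 ratio of −1.04 and −1.05 at DLX1–DLX2, −1.99 and −2.53 at DLX6–DLX5, and −2.69 and −1.69 at DLX4–DLX3. Over all promoters with a domain in both arms, scaled domain reads within the promoter window had median log2 ratios of −1.22 and −1.06. A sum over domains moves with the length called, which includes bases beyond the span. That length was 32.6 kb in water and 21.7 kb with dox at DLX1–DLX2 in the shDPPA4 line and 12.8 and 3.1 kb at DLX6–DLX5. Per kb of domain the log2 ratios were −0.45 and −0.83 at DLX1–DLX2, 0.055 and −0.40 at DLX6–DLX5, and −0.55 and −0.33 at DLX4–DLX3.

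RING1B kept a domain at all 6 promoters in both lines, where 3.93% of promoters lost theirs in shDPPA4 cells and 22.8% in shDPPA2+4 cells. In the shDPPA4 line its change was −0.20 ± 0.12 at DLX1, −0.22 ± 0.11 at DLX2, 0.03 ± 0.29 at DLX3, −0.81 ± 0.49 at DLX4, −0.65 ± 0.35 at DLX5 and −0.01 ± 0.28 at DLX6. With dox, DLX1 and DLX2 in that line lay in the same domain of 2134 reads, so their values share those reads. None of the 6 genes was past a 2-fold lower density (background 4.79%) or a 2-fold higher density (0.221%). In the shDPPA2+4 line all 6 were lower by density, from −0.44 ± 0.42 at DLX3 to −1.06 ± 0.22 at DLX2. DLX2 was the gene past 2-fold (background 22.8%, and 0.13% for 2-fold higher), and the interval at DLX4, −0.56 ± 0.66, crossed 0. By MACS2 fold the values ran from 0.08 at DLX1 to −1.20 at DLX6, with DLX2 at −0.12. By EPIC2 log2 fold they ran from 0.34 at DLX3 to −0.86 at DLX6, with DLX2 at −0.72. DLX2 was thus past 2-fold by density and not by either fold. The density medians of −0.21 and −0.72 lay close to those of all promoters, −0.28 and −0.69. At DLX5, where the DPPA4n domain was lost, RING1B covered 53.3% in water and 100% with dox in the shDPPA4 line, and 46.7% in both arms of the shDPPA2+4 line. At DLX3 its coverage went from 75.9% to 100% in shDPPA4 cells and from 95.9% to 25.9% in shDPPA2+4 cells, opposite directions in the 2 lines.

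**Figure D4:**
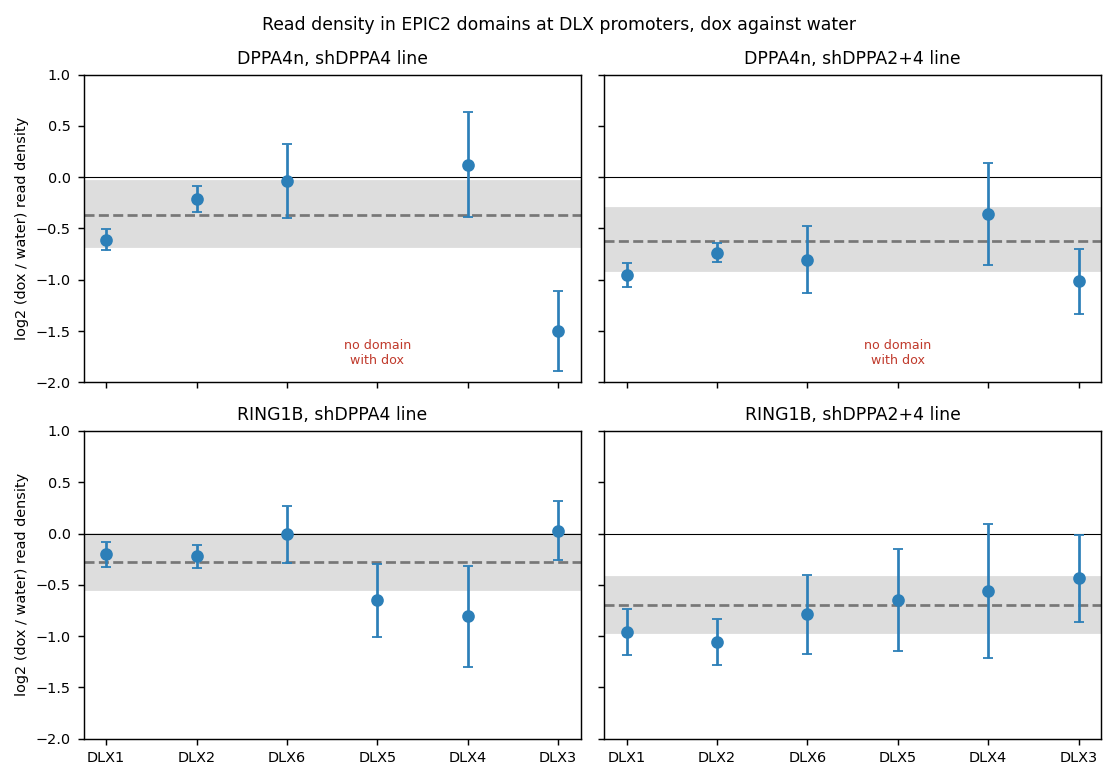
Log2 ratio of read density, dox over water (vertical axis), at each DLX promoter for DPPA4n (top) and RING1B (bottom) in both hairpin lines, with 95% counting intervals, 1 library per arm. The dashed line and grey band mark the median and quartiles over all promoters with a domain in both arms, and DLX5 had no DPPA4n domain left with dox in either line.

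Genes related to DLX by pathway or family were counted by the same rules. Peaks of both DPPA2 and DPPA4n in parental NCI-H661 had a background of 39.2% of all promoters and 61.2% of CpG-rich promoters. Of 12 regulators of DLX genes in forebrain, pharyngeal arch and ectoderm, 4 had both. Among them were GSX2, a forebrain progenitor homeobox gene, at 6.24-fold for DPPA2, EDN1, the signal that switches on DLX5 and DLX6 in the jaw, at 4.48-fold, and BMP4 at 3.96-fold. Of 12 genes known to act downstream of DLX factors, 5 had both peaks, with SP8 at 13.8-fold, GBX2 at 9.26-fold and SP9 at 8.28-fold, all transcription factors of the developing brain or limb. Of 41 homeobox genes of the NKL class, to which the DLX genes belong, 20 had both, led by NKX6-2 at 18.1-fold, NKX2-1 at 15.0-fold and BARX1 at 14.7-fold, and BARHL1 had neither. Of these lists of 12, 12 and 41 genes, 4, 5 and 25 were in the CpG-rich class. RING1B domains in both water arms touched 9, 8 and 37 (background 57.6% of all promoters and 84.7% of CpG-rich promoters). PCGF1 touched 3, 5 and 22 (16% and 26%), MTF2 10, 9 and 38 (56.4% and 81.6%), and EP300 1, 2 and 15 (45.6% and 68.1%). In NCI-H1299, DPPA2 and DPPA4n domains in both replicates touched 1, 4 and 11, or 8.33%, 33.3% and 26.8%, against a background of 30.6% of all promoters and 49.4% of CpG-rich promoters.

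The closest promoters to 5 of the 6 DLX genes in covered percent over all 30 libraries were LETM2 for DLX1, with a mean absolute difference of 14.3 percentage points, SOX18 for DLX2 (10.6), GPD1L for DLX4 (8.85), IHH, a hedgehog ligand, for DLX5 (9.29) and ITGB5 for DLX6 (9.76). The next were HOXC10 and SP8 for DLX1, FZD7 and KAZALD1 for DLX2, PYGO1 and TMEM185B for DLX4, MCTP1 and SOX7 for DLX5, and AXIN2 and OTULIN for DLX6. Partners differed from each other by 20.9 points for DLX1 and DLX2, 22.6 for DLX5 and DLX6 and 23.2 for DLX3 and DLX4. The closest promoters were picked as the lowest differences over all promoters, so the values for partners cannot be ranked against them. The smallest difference between 2 DLX genes, 19.3 points, was between DLX4 and DLX5, which are not partners. These values are descriptions over libraries that share cells and differ in how much was called.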

How the data were processed

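CUT&RUN reads were trimmed with Trim Galore 0.6.6, aligned to hg38 (GRCh38.p13) with BWA 0.7.13, and handled with SAMtools 1.9 and Picard 2.6.0, as the submitters' processing notes list them. MACS2 2.27.1 is the version in those notes. The EPIC2 version used on the CUT&RUN libraries is not given in the sources used here. The authors called EPIC2 domains (bins of 100 bp) and MACS2 peaks per library against IgG and deposited, for EPIC2, read counts of sample and control with a log2 fold and, for MACS2, a fold with −log10 p and q values. The authors also deposited a score per region, which restates the fold (EPIC2) or the q value (MACS2) and was not used. IgG libraries had no called regions and were not analysed here.

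Regions on the autosomes and X with a false discovery rate below 0.05 and a log2 fold above 1 (MACS2 fold above 2) were kept. The blacklist the study applied was not used here. Promoters were TSS ± 1500 bp of GENCODE 44 canonical transcripts. A promoter was called touched by any overlap, and its covered percent, domain reads, IgG reads and strongest fold were recorded. CpG-rich, middle and poor classes came from CpG content, with a GC minimum of 55% for the rich class. Library sizes relative to IgG were recovered from the deposited log2 folds and counts. Water and dox arms of a line and antibody shared their IgG counts, so densities were compared per library size. No p-value was computed with 1 library per group. NCI-H1299 classes were compared by an exact permutation test over all 924 splits, with Benjamini-Hochberg adjustment over 13637 promoters, and with limma 3.58.1 in R 4.3.3; both were tested on simulated data. Python 3.11.15, pandas 2.3.3 and pysam 0.24.0 were used.

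The named genes were the 6 members, the nearest protein-coding gene on either side of each pair, up to 4 genes of each fixed list (the 3 with both proteins and the highest DPPA2 fold, and the alphabetically first with neither) and the 3 genes closest to each member in covered percent. Some genes that this rule named are not reported here. The members and lists were chosen with earlier results of these data known. Alternatives were MACS2 against EPIC2 calls, a log2 fold above 2, windows of 500 bp, other measures of change, the replicate block, and leaving out libraries. Promoter sequences of DLX2 and DLX6 were matched in RefSeq.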

Additional observations from a re-analysis of the deposited data

Results flagged for a closer look

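Among 12 sets of 6 NCI-H1299 libraries, 1 gene and antibody class at a time, 1 held a library far from the rest. At DLX6 the covered percent was 0 with Flagmono in replicate 2, and 50.0 to 71.7 in the other 5 DPPA2-directed libraries. The gap was 0.697 of the whole range, past the limit of Dixon for 6 values. Chance flags about 1 in 20 such sets. That library had the fewest domains of all and was at 0 for every DLX gene.

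In 2 cases the hairpin lines moved in opposite directions between water and dox. At DLX4 the DPPA4n density changed by a log2 ratio of 0.12 in shDPPA4 cells and −0.36 in shDPPA2+4 cells, and at DLX3 the RING1B density by 0.028 and −0.44. These differences between the lines were not tested, with 1 library per arm, and the counting intervals of all but the last value reached 0. At DLX4 the opposite directions were particular to the measure. In the shDPPA4 line the DPPA4n change there was −0.64 by EPIC2 log2 fold and −1.25 by reads in the window. It was −1.63 by MACS2 fold and −0.32 in windows of 500 bp. At DLX3 the RING1B change was −0.45 in shDPPA4 cells and −1.11 in shDPPA2+4 cells by MACS2 fold. By reads in the window it was 0.43 and −1.98, again opposite. By EPIC2 log2 fold it was −0.12 and 0.34, opposite with the signs exchanged.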

How the results depend on the processing

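Over 63 recomputed values that answer a comparison, 50 stayed within a set margin and 13 moved. Counts of 4 and 6 were within that margin, as were median changes inside the counting interval of the main value. The settings of the NCI-H1299 test also counted as within it, because each called 0 of the DLX genes, as the main test did. In parental NCI-H661, replacing DPPA4n with the central-region antibody left 2 promoters (DLX1 and DLX2) in place of 5. In NCI-H1299, MACS2 peaks left 2 (DLX2 and DLX6) of 4, and leaving out 1 replicate gave 4 to 6. In the water arms MACS2 peaks left 2 of 5 for PCGF1 (1.41% of all promoters, against 16% by EPIC2 domains). A log2 fold above 2 left 3 for PCGF1, 2 of 5 for MTF2 and 1 of 3 for EP300. The shares of all promoters for that limit, for MACS2 peaks in NCI-H1299 and for the central-region antibody are not given here. Those lower counts are therefore not read as results about the DLX genes. The members' median DPPA4n change in the shDPPA4 line, −0.21, became −1.21 as a difference of EPIC2 log2 folds, −0.98 with covered length included and −1.03 from MACS2 folds. In the shDPPA2+4 line, −0.80 became −1.15 with covered length and −0.39 from MACS2 folds. RING1B in the shDPPA4 line, −0.21, became 0.064 with covered length and 0.088 from MACS2 folds. The cause was not tested. Of 186 recomputed values for single genes 42 moved and 3 reversed (a dox change under 2-fold was not counted as reversed): DLX3 for DPPA4n in the shDPPA2+4 line, to 1.00 by EPIC2 log2 folds (median of all promoters −0.80), DLX4 in NCI-H1299, to 0.30 by log2 fold, and DLX5 in NCI-H1299, to 7.78 points without replicate 2 (−36.3 without replicate 1).

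In NCI-H1299, leaving out 1 replicate gave 0 to 0 genes called. Same-numbered libraries were checked for pairing: over 15 antibody pairs the correlation of deviations ran from 0.00443 to 0.666, all positive but with 10 above 0.1, so they were not taken as paired. With the replicate block the exact permutation test called 0 promoters adjusted and 2075 unadjusted, against 614 without it, with DLX2 at an exact p of 0.015, and limma called 0 adjusted and 3302 unadjusted, against 1001, with DLX2 at an unadjusted p of 0.0319. Unadjusted counts were 141 by log2 fold, 4 by MACS2 coverage, 297 in windows of 500 bp, 279 without the Flag monoclonal antibody and, chosen after seeing the data, 252 without replicate 2 of Flagmono, where the DLX6 difference was −8.74 points. With 1 replicate left out the smallest possible p is 0.1. The files do not give total depth, so no limit was set from it.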
